A study of Mus musculus with 12 samples.

Results

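Cholesterol is built from acetyl-CoA by a chain of enzymes, and the mRNAs of 8 of these enzymes, Hmgcs1, Idi1, Fdps, Fdft1, Sqle, Lss, Cyp51 and Dhcr7, were followed through preparations of mouse dorsal root ganglion (DRG), the ganglion that holds the cell bodies of sensory neurons. The 8 genes were taken by symbol from a table of 24490 genes, and each was found once. RNA-sequencing was performed on 12 samples from adult male C57Bl/6 mice, a wild-type inbred strain, with no treatment and no culture period. The 4 intact samples were whole ganglia from all spinal levels, frozen straight after dissection, each from 1 mouse. The 4 unsorted samples were ganglia that had been acutely dissociated with dispase, collagenase and DNAse, each from 2 mice. The 4 MACS-sorted samples were dissociated in the same way and then passed over a magnetic column that kept back cells bound by antibodies to non-neuronal surface proteins, so that mainly neurons came through, each sample from 8 mice. The MACS-sorted group therefore carries dissociation as well as sorting, and it averages over more animals than the other groups.

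The early enzymes of the pathway make mevalonate and turn it into isoprenoid units, which are joined into squalene. Squalene is then oxidised and folded into lanosterol, the first sterol, which is trimmed and reduced step by step to cholesterol. Transcription of these genes is known to rise together when membrane sterol is low, through the transcription factor SREBP-2, which binds sterol regulatory elements in their promoters, often beside CCAAT boxes bound by NF-Y. In peripheral ganglia, myelinating Schwann cells are known as heavy makers of cholesterol, and neurons are thought to take up part of theirs from glia.

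The promoters of members that are known to share this control are shown because the members differed in direction between the groups. Of the 8 genes, 5 were matched to a RefSeq promoter on GRCm38.p6, and Fdps, Fdft1 and Sqle are named only. Each run gives the 150 bases before the transcription start, 5′ to 3′ on the strand of the gene. The windows are chr13:119690201-119690350 (plus strand) for Hmgcs1, chr13:8885456-8885605 (plus strand) for Idi1, chr10:76531455-76531604 (plus strand) for Lss, chr5:4104698-4104847 (minus strand) for Cyp51 and chr7:143823017-143823166 (plus strand) for Dhcr7. Capitals mark matches to TCACCNCA, the core of a sterol regulatory element, and to CCAAT or its reverse complement ATTGG.
Hmgcs1: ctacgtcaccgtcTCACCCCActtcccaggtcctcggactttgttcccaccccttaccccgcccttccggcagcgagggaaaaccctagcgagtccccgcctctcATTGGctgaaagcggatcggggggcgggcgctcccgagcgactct
Idi1: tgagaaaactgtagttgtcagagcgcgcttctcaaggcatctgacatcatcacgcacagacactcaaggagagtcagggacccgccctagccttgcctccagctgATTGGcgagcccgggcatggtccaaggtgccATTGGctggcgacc
Lss: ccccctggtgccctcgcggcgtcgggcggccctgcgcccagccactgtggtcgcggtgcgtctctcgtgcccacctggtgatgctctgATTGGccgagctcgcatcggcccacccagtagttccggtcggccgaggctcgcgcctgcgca
Cyp51: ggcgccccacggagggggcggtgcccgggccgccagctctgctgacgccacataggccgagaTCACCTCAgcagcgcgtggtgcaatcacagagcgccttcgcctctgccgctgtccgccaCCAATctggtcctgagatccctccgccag
Dhcr7: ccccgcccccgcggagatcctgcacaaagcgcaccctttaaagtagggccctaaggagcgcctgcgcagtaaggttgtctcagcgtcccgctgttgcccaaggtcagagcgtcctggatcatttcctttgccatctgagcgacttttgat

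The motif TCACCNCA, searched on both strands, was found in Hmgcs1, 137 to 130 bases before the start, and in Cyp51, 88 to 81 bases before the start. It was present in 2.18% of all 32851 RefSeq promoter windows of the same length, and its letters were chosen after the sequences had been seen. A CCAAT box was found in Hmgcs1, Idi1, Lss and Cyp51, with 2 matches in Idi1, against 24.5% of all windows. The Dhcr7 window, the one of its 3 RefSeq starts that lies at the deposited 5′ end, held neither set of letters. These matches describe the windows only. The Lss window ends 22 bases upstream of the deposited 5′ end of the gene.

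Expression was given in FPKM, mapped fragments scaled to transcript length and to library size, so levels of different genes can be set side by side per length. The preparations were checked against marker lists. Scn10a, the sodium channel of nociceptors, lay between 165 and 191 FPKM before sorting and between 237 and 306 FPKM after it, and all 6 nociceptor markers were higher after sorting. Markers of neurons in general were mixed, with 2 of 6 higher and 2 lower. Among them, the synaptic gene Snap25 fell from 605 ± 26.7 to 314 ± 14.4 FPKM (-0.94, limma adjusted p = 7.7e-06) and Tubb3 fell by 0.38 on the log2 scale (adjusted p = 0.0343). In the other direction, Avil lay between 221 and 246 FPKM before sorting and between 305 and 403 FPKM after it. Elavl4 lay between 65.5 and 78.7 FPKM before sorting and between 90.4 and 96.1 FPKM after it. All 6 markers of large-diameter neurons were lower, with a sum of 829 to 1016 FPKM before sorting and 69.0 to 134 FPKM after it. The 8 Schwann cell markers summed to 1934 to 3189 FPKM before sorting and 520 to 1205 FPKM after it, with 7 of 8 lower. The 6 satellite glia markers summed to 392 to 534 FPKM and 84.3 to 130 FPKM, with 6 of 6 lower. Slc1a3, the glutamate transporter of satellite glia, was near 0 after sorting, at 0.0141 to 0.067 FPKM. Mag, a myelin gene named after its values were seen, was listed at 0 in MACS-sorted replicate 2. Fibroblast markers were lower in 4 of 5, endothelial markers passed in 0 of 5 and 1 macrophage marker was expressed highly enough to be tested and was lower. That marker reached the mean of 1 FPKM needed for a test only through the unsorted samples. Haemoglobin genes made up 0.681, 0.865, 5.14 and 7.13% of summed FPKM in MACS-sorted replicates 1 to 4, against 0.0577 to 0.179% in unsorted samples. Further libraries stood out in other ways. The summed FPKM of intact replicate 1 was 345341, against 283676 to 293648 in the other intact samples. Over 1223 highly expressed genes it differed from each of them by a median of 0.302 to 0.353 on the log2 scale. The other intact samples differed from each other by 0.0620 to 0.0802. Its Schwann cell markers summed to 4551 FPKM, against 2512 to 3321 FPKM in the others, and its fibroblast markers to 824 FPKM, against 431 to 492 FPKM. Unsorted replicates 1 and 2 differed by a median of only 0.0288 over the same 1223 genes, less than any other pair of replicates. The spacing of low FPKM values corresponded to 17260000 and 18420000 fragments in these 2, if fragments of 150 bases are assumed. Whether they were 1 library was not tested, and they were kept as 2 samples.

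The 8 enzymes were expressed in all 12 samples, from 4.67 FPKM for Lss in MACS-sorted replicate 4 to 276 FPKM for Hmgcs1 in unsorted replicate 1. Their summed level was 457 to 484 FPKM in whole ganglia, 502 to 544 FPKM once dissociated and 416 to 585 FPKM once sorted. Hmgcs1 stood above the other 7 in every sample. In unsorted samples the order was Hmgcs1, Sqle, Fdft1, Dhcr7, Cyp51, Fdps, Lss and Idi1, and of neighbours in that order only Dhcr7 and Cyp51, and Lss and Idi1, had overlapping ranges. In MACS-sorted samples Lss was last, and its highest value of 6.25 FPKM lay below the lowest value of Idi1, 10.2 FPKM. In that group the ranges of Sqle and Fdft1 overlapped, as did those of Cyp51 and Fdps.

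**Figure D1:**
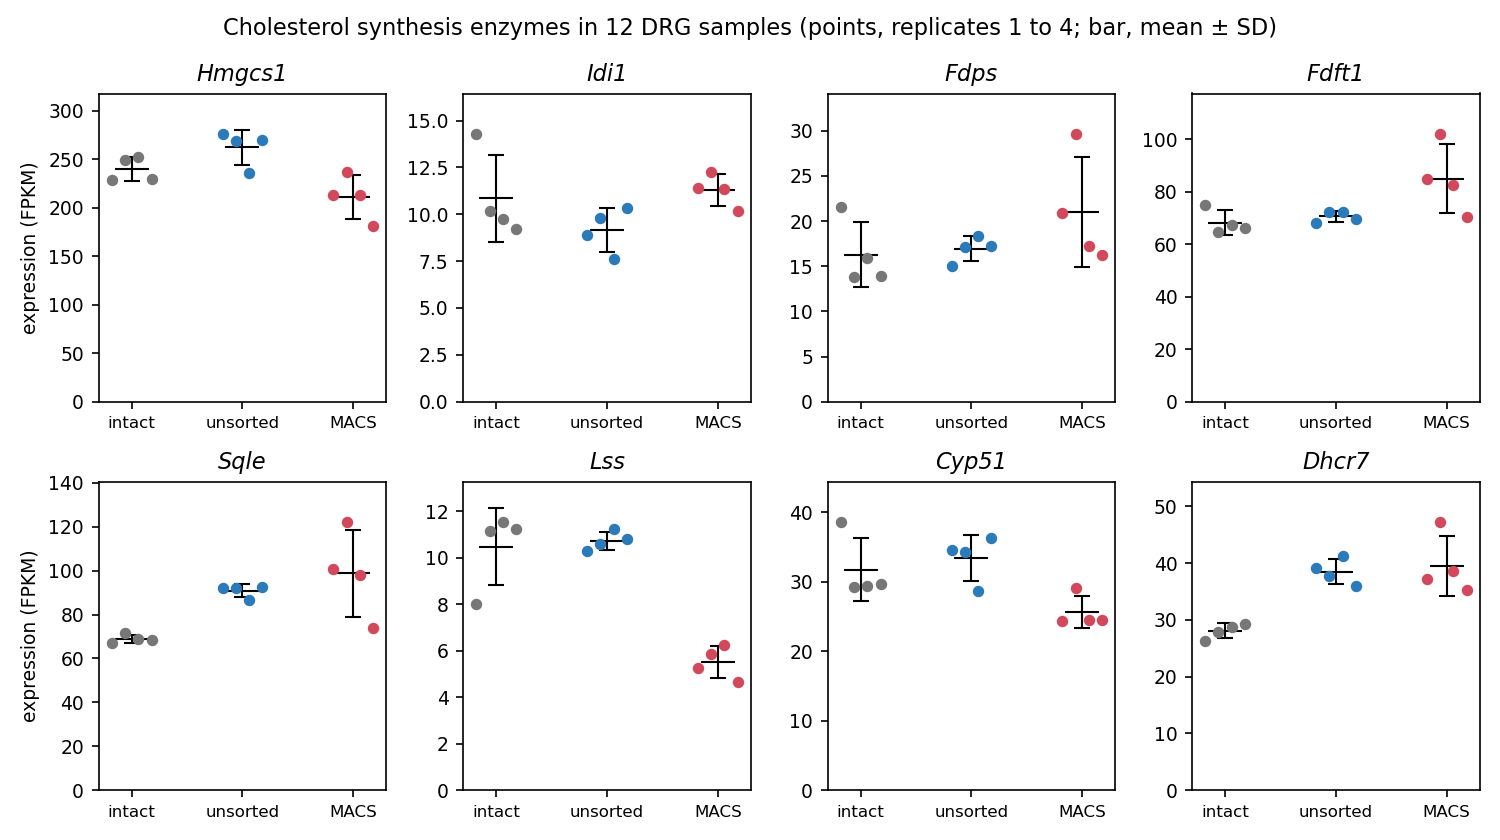
FPKM of the 8 enzymes in pathway order, with a linear axis from 0 for each gene. Points are the 4 samples of each group, ordered by replicate from left to right, and bars are the mean ± SD. The 4 MACS-sorted values of Lss (4.67 to 6.25 FPKM) lie below all 8 others, and the intact values of Sqle and Dhcr7 lie below all unsorted values.

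Hmgcs1 makes HMG-CoA, the substrate from which mevalonate is formed. It was at 229, 249, 252 and 229 FPKM in intact replicates 1 to 4. In unsorted samples it was at 276, 268, 236 and 269 FPKM. In MACS-sorted samples it was at 213, 237, 213 and 181 FPKM. The MACS-sorted values were mostly the lowest of the 3 groups, but replicate 2 lay just above the lowest unsorted sample and within the intact range. Idi1, which interconverts the isoprenoid building blocks, was far lower. Intact samples had 14.3, 10.2, 9.73 and 9.22 FPKM. Unsorted samples had 8.90, 9.78, 7.62 and 10.3 FPKM. MACS-sorted samples had 11.4, 12.3, 11.4 and 10.2 FPKM. Intact replicate 1 was the highest of all 12, and the unsorted and MACS-sorted ranges overlapped by a small margin.

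Fdps joins isoprenoid units into farnesyl diphosphate, the last intermediate shared with protein prenylation. Its values were 21.5, 13.8, 15.9 and 13.9 FPKM in intact samples. They were 15.0, 17.1, 18.3 and 17.3 FPKM in unsorted samples. They were 20.8, 29.7, 17.3 and 16.2 FPKM in MACS-sorted samples. The 3 groups overlapped, and MACS-sorted replicate 2 stood above every other sample. Fdft1, squalene synthase, draws farnesyl diphosphate into sterol synthesis. It was at 75.1, 64.6, 67.2 and 66.0 FPKM in intact samples. It was at 68.3, 72.3, 72.3 and 69.7 FPKM in unsorted samples. In MACS-sorted samples it was at 84.7, 102, 82.6 and 70.4 FPKM. The first 3 MACS-sorted samples lay above all others, while replicate 4 lay within the unsorted range.

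Sqle, squalene epoxidase, is a rate-limiting oxygenase of the sterol branch. Intact samples had 67.2, 71.6, 68.9 and 68.3 FPKM. Unsorted samples had 92.2, 92.3, 86.6 and 92.4 FPKM. MACS-sorted samples had 101, 122, 98.0 and 74.0 FPKM. All unsorted and MACS-sorted samples exceeded all intact samples, and the MACS-sorted samples spread the most. Lss, lanosterol synthase, folds the epoxide that Sqle makes into lanosterol. It was at 8.02, 11.1, 11.5 and 11.2 FPKM in intact samples. It was at 10.3, 10.6, 11.2 and 10.8 FPKM in unsorted samples. It was at 5.26, 5.84, 6.25 and 4.67 FPKM in MACS-sorted samples. Every MACS-sorted sample lay below every other sample.

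Cyp51 removes the first methyl group from lanosterol. Its values were 38.6, 29.3, 29.4 and 29.6 FPKM in intact samples. They were 34.5, 34.3, 28.7 and 36.2 FPKM in unsorted samples. They were 24.4, 29.0, 24.4 and 24.5 FPKM in MACS-sorted samples. MACS-sorted values lay at the bottom, with replicate 2 overlapping only the lowest unsorted sample. Dhcr7 catalyses a final reduction that gives cholesterol. It was at 26.4, 27.9, 28.8 and 29.2 FPKM in intact samples. It was at 39.1, 37.7, 41.2 and 35.9 FPKM in unsorted samples. It was at 37.1, 47.2, 38.6 and 35.3 FPKM in MACS-sorted samples. As with Sqle, the intact samples were the low group, and the remaining groups overlapped.

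Sorting was examined by comparing MACS-sorted with unsorted samples, both dissociated. Lss fell by 48.7%, from 10.7 ± 0.385 to 5.50 ± 0.689 FPKM (mean ± SD, n = 4 and 4), Cyp51 fell from 33.4 ± 3.27 to 25.6 ± 2.30 FPKM and Hmgcs1 fell from 262 ± 18.03 to 211 ± 23.2 FPKM. Idi1 rose from 9.16 ± 1.18 to 11.3 ± 0.870 FPKM. In such bulk samples, fewer cells of a type and less RNA per cell cannot be told apart.

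Differences were tested with limma on log2(FPKM + 0.1) across the 12038 genes whose mean reached 1 FPKM, with Benjamini-Hochberg adjustment, and calls were made at an adjusted p under 0.05. The log2-fold change of Lss was -0.96 (SE 0.100, 95% interval -1.18 to -0.73, adjusted p = 4.9e-05). That of Cyp51 was -0.38 (SE 0.0922, adjusted p = 0.0072) and that of Hmgcs1 was -0.32 (SE 0.0946, adjusted p = 0.0199). Idi1 had a log2-fold change of 0.31 (SE 0.107, adjusted p = 0.0400). The remaining 4 did not pass. Fdps had a difference of 0.27 (95% interval -0.11 to 0.66, adjusted p = 0.223) and Fdft1 of 0.25 (0.02 to 0.48, adjusted p = 0.0671). Sqle had a difference of 0.10 (-0.19 to 0.39, adjusted p = 0.567) and Dhcr7 of 0.03 (-0.18 to 0.24, adjusted p = 0.813).

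Thus 1 of 8 members was higher and 3 of 8 were lower, where 18.8% of all genes tested were higher and 27.7% lower (46.5% in either direction), so the share called is near that of all genes and is not a result about the 8 enzymes as a list. Their median log2-fold change was 0.06, beside -0.04 over all genes tested. Lss was the only member whose groups did not overlap, which held for 27.8% of all genes in the lower and 18.4% in the higher direction (two-sided exact permutation p = 0.0286, the smallest that 4 against 4 samples allow). It was also the only member that met the 3 criteria used by the study, namely significance (here an adjusted p under 0.05), a log2 ratio of means beyond 0.5 and more than 5 FPKM on average in the group with more. These were met by 12.5% of all genes in the lower and 8.15% in the higher direction. The study also removed genes that were higher in MACS-sorted samples and well expressed in red blood cells. That step was not applied here, so the share in the higher direction includes such genes. The samples of a group are described as biological replicates. The limma p-values weigh each difference against the spread between these samples, with the variance partly estimated from all genes. In this comparison the spread is between pools of 2 and of 8 mice, not between single animals, and the closely alike unsorted replicates 1 and 2 count as 2 samples.

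**Figure D2:**
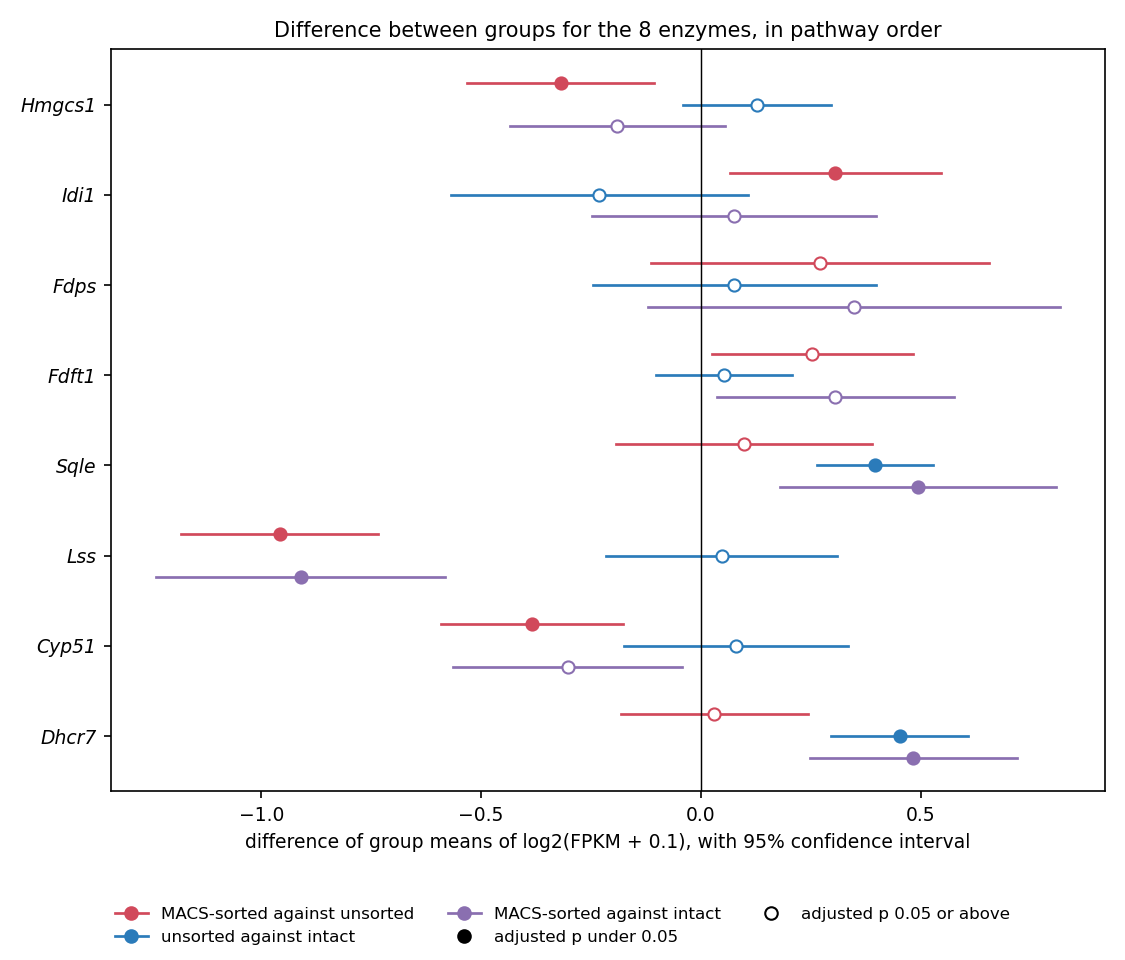
Difference of group means of log2(FPKM + 0.1) for each enzyme in pathway order, with 95% confidence intervals, for 3 comparisons between 4 and 4 samples that share groups. Filled points have an adjusted p under 0.05 (limma). Lss lies at -0.96 and -0.91 in both comparisons of MACS-sorted samples, while Sqle and Dhcr7 lie at 0.40 and 0.45 in unsorted against intact samples.

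The calls of Lss and Cyp51 held in all 20 alternative settings, with a limma adjusted p of at most 4.1e-04 for Lss and 0.0495 for Cyp51. The call of Idi1 was lost in 10 of 20, among them the omission of MACS-sorted replicate 1, 2 or 3 (adjusted p = 0.0734, 0.0888 and 0.0775) or of unsorted replicate 1, 2 or 3 (0.0920, 0.0529 and 0.0904). That of Hmgcs1 was lost in 5 of 20, among them the omission of unsorted replicate 1, 2 or 4 (adjusted p = 0.0626, 0.0572 and 0.0571). It was also lost with the closely alike unsorted replicates 1 and 2 averaged (limma adjusted p = 0.0593). That setting left 2 members lower, where 23.9% of all genes tested were lower. MACS-sorted replicate 4, the library with the highest haemoglobin share and the highest Schwann cell marker sum of its group, was the lowest of its group for 7 of 8 members, and replicate 2 was the highest for 7 of 8. Without replicate 4, Fdft1 (0.34, adjusted p = 0.0067) and Sqle (0.23, adjusted p = 0.0431) were also called higher. Fdft1 was called higher with all 8 samples kept as well, in 3 settings. These were median-ratio size factors (0.31, limma adjusted p = 0.0213), quantile normalization (0.25, adjusted p = 0.0125) and removal of red blood cell genes (0.29, adjusted p = 0.0247). Over all genes tested, 23.4%, 33.1% and 21.9% were higher in these 3 settings. With both haemoglobin-rich libraries, replicates 3 and 4, left out, 4 members were higher (Idi1, Fdps at 0.56, Fdft1 at 0.40 and Sqle at 0.29) and 2 lower (Lss at -0.94 and Cyp51 at -0.32), and Hmgcs1 was at -0.22 (adjusted p = 0.0602). In that setting 21.2% of all genes tested were higher and 27.7% lower, and without replicate 4 alone 21.4% were higher and 29.1% lower. The parts of haemoglobin RNA and of the glial and large-diameter neuron markers in these differences were not tested.

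Dissociation was examined by comparing unsorted with intact samples. Sqle rose by 31.7%, from 69.0 ± 1.87 to 90.8 ± 2.87 FPKM, and Dhcr7 rose by 37.1%, from 28.1 ± 1.28 to 38.5 ± 2.24 FPKM (n = 4 and 4), and the groups did not overlap for either gene, as for 20.8% of all genes in the higher direction. The log2-fold change was 0.40 for Sqle (SE 0.0586, adjusted p = 0.0038) and 0.45 for Dhcr7 (SE 0.0690, adjusted p = 0.0042, limma). Both calls held in all 19 alternative settings, and the smallest differences among them were 0.36 and 0.39. Both were below the log2 ratio of 0.5, so 0 of 8 members met the 3 criteria, against 4.29% of all genes in the higher and 2.76% in the lower direction.

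No other member passed. Hmgcs1 was at 0.13 (95% interval -0.04 to 0.30), Fdps at 0.08 (-0.25 to 0.40), Fdft1 at 0.05 (-0.10 to 0.21), Lss at 0.05 (-0.21 to 0.31) and Cyp51 at 0.08 (-0.17 to 0.34). Idi1 was the one member with a lower mean, at -0.23 (-0.57 to 0.11). So 2 of 8 members were higher and 0 lower, against 14.8% and 7.79% of all 12392 genes tested (22.5% in either direction), and the medians were 0.08 for the members and 0.01 for all genes. In the same comparison, all 5 fibroblast markers and 4 of 5 macrophage markers were lower, all 5 endothelial markers, 4 of 6 neuronal markers, 4 of 6 large-diameter neuron markers (list median 0.60) and 3 of 6 satellite glia markers (list median 0.35) were higher, and 0 of 8 Schwann cell markers passed. Macrophage markers were low, and some reached the mean of 1 FPKM only through the intact samples, so their count is a description only. Aif1, for example, was at 1.32 to 5.34 FPKM in intact and 0.439 to 0.650 FPKM in unsorted samples. The part of these marker shifts in the 2 calls was not tested. Without intact replicate 1, again 2 members were higher and 0 lower, where 22.2% of all genes tested were higher and 13.6% lower. Fdps was then at 0.22 (limma adjusted p = 0.0640).

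Both steps together were examined by comparing MACS-sorted with intact samples, which reuses the samples above and is no separate evidence. Sqle rose by 43.1% (0.49, SE 0.140, adjusted p = 0.0216), Dhcr7 rose by 40.7% (0.48, SE 0.105, adjusted p = 0.0060) and Lss fell by 47.5% (-0.91, SE 0.147, adjusted p = 0.0011). Sqle and Lss met the 3 criteria, which 7.54% of all genes met in the higher and 10.7% in the lower direction, with red blood cell genes kept. Cyp51 had non-overlapping groups and a difference of -0.30, but an adjusted p of 0.0705 (limma). Fdft1 was at 0.31 (adjusted p = 0.0756), Fdps at 0.35 (0.228), Hmgcs1 at -0.19 (0.208) and Idi1 at 0.08 (0.714). Thus 2 of 8 members were higher and 1 lower, against 14.1% and 20.6% of all 12234 genes tested (34.8% in either direction). Groups did not overlap for 15.6% of all genes in the higher and 21.9% in the lower direction. The call of Sqle was lost without MACS-sorted replicate 1 or 3 or without intact replicate 3 or 4 (adjusted p = 0.0565, 0.0547, 0.0521 and 0.0540). Cyp51 was called lower without MACS-sorted replicate 2 (-0.36, adjusted p = 0.0491), and Fdft1 was called higher without MACS-sorted replicate 4 or intact replicate 1 (0.39 and 0.35, adjusted p = 0.0198 and 0.0424). With no sample left out, Fdft1 was also called higher under each of 3 other scalings and with all 12 samples in one fit (limma adjusted p = 0.0253 to 0.0358). Cyp51 was also called lower with all 12 samples (adjusted p = 0.0393) and under quantile normalization (adjusted p = 0.0199).

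The balance between members was also compared within each sample, where any scaling of the whole library cancels. The substrate of Lss is the product of Sqle, and the ratio of their FPKM values was 5.98 to 8.37 in whole ganglia, 7.72 to 8.95 once dissociated and 15.7 to 20.9 once sorted. All 4 MACS-sorted ratios thus lay above all intact and unsorted ratios, and the haemoglobin-rich replicates 3 and 4 had the lower values of the group, 15.7 and 15.9. The ratio of Dhcr7 to Cyp51 was 0.684 to 0.987 in whole ganglia and 0.992 to 1.44 once dissociated. It was 1.438 to 1.63 once sorted, just above the highest unsorted value of 1.437. The ratio of Hmgcs1 to Idi1 was 26.1 to 31.0 in unsorted samples, above the 17.8 to 19.3 of MACS-sorted samples and the 15.99 to 25.9 of intact samples. By contrast, the ratio of Fdft1 to Fdps stayed in a similar range in all groups, with 3.49 to 4.75 in whole ganglia, 3.95 to 4.55 once dissociated and 3.44 to 4.78 once sorted. These ratios restate the values above and were not tested.

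**Figure D3:**
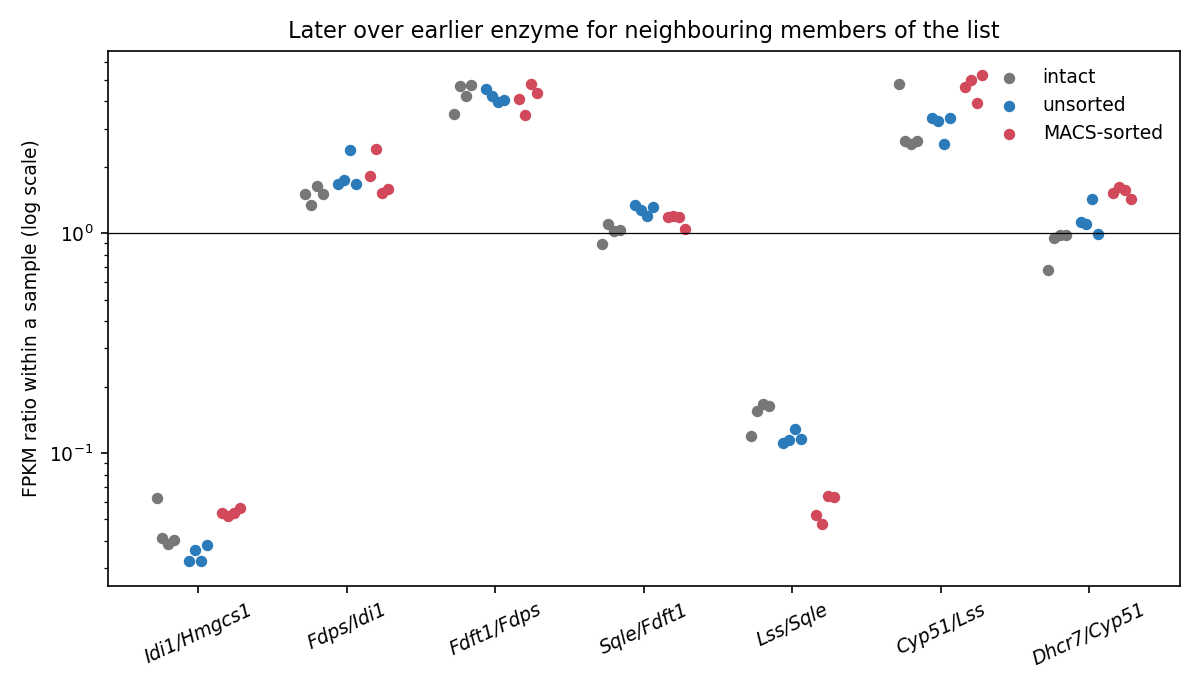
Ratio of the FPKM of each member to that of the member before it on the list, within each sample, on a log axis. Points are the 4 samples of each group, ordered by replicate. Lss over Sqle is lowest in the MACS-sorted samples, 0.0478 to 0.0638, against 0.112 to 0.130 in unsorted samples.

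Most of the other 13 enzymes on the way from acetyl-CoA to cholesterol were not called. In MACS-sorted against unsorted samples 1 of 13 was higher, 1 of 13 was lower and 11 did not pass, with a median of 0.18. Of all genes tested, 18.8% were higher and 27.7% lower. Hsd17b7, a ketoreductase that acts while methyl groups are removed from lanosterol, was at 19.5, 20.7, 16.4 and 21.5 FPKM in unsorted samples. It was at 13.1, 11.98, 11.6 and 9.90 FPKM in MACS-sorted samples. The groups did not overlap, and it fell by 0.74 on the log2 scale (adjusted p = 4.7e-04, limma), so that Hsd17b7 met the 3 criteria as Lss did. Mvd, which decarboxylates mevalonate diphosphate just before the step of Idi1, rose from 21.5 ± 2.23 to 29.4 ± 6.13 FPKM (0.43, adjusted p = 0.0282). Lbr, a sterol reductase of the nuclear membrane, showed the widest interval of the 13, 0.76 (-0.04 to 1.57). In MACS-sorted replicates 1 to 4 it was at 11.1, 4.01, 7.47 and 16.03 FPKM, so it was highest in replicate 4 and lowest in replicate 2, the reverse of most members.

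In unsorted against intact samples, 14.8% of all genes tested were higher and 7.79% lower. Of the 13 enzymes, 2 were higher and 0 lower. Among them, Hsd17b7 rose from 15.0 ± 0.520 to 19.5 ± 2.26 FPKM (0.37, adjusted p = 0.0216).

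**Figure D4:**
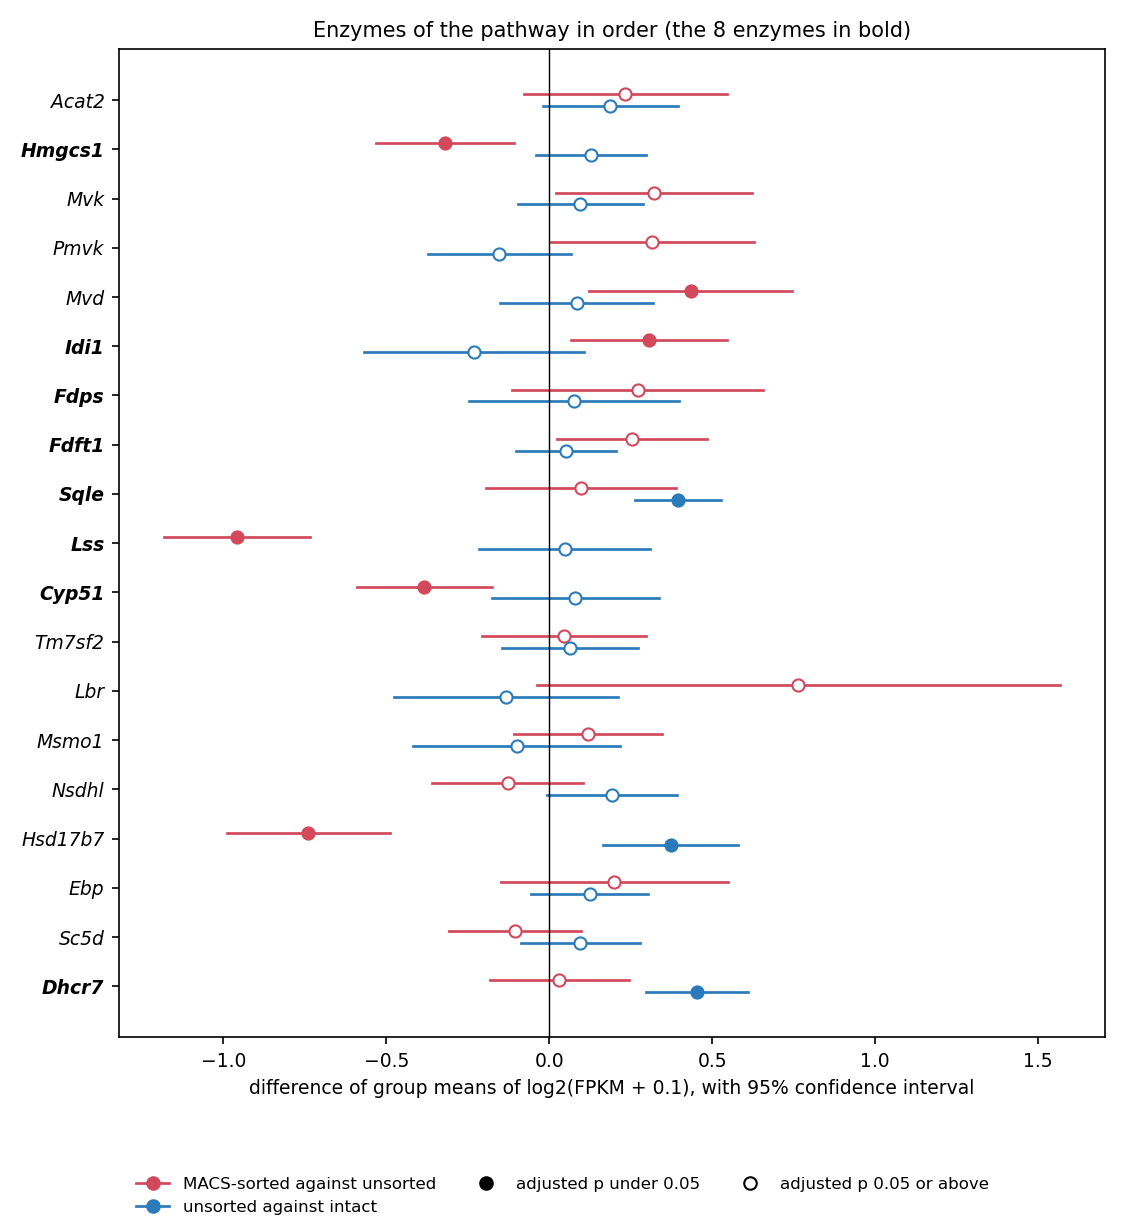
Difference of group means of log2(FPKM + 0.1) with 95% confidence intervals for the 8 enzymes (bold) and other enzymes of the pathway in order, in MACS-sorted against unsorted and unsorted against intact samples, 4 per group. Filled points have an adjusted p under 0.05 (limma). Lss (-0.96) and Hsd17b7 (-0.74) lie furthest below 0 after sorting, while the intervals of Acat2, Tm7sf2, Lbr, Msmo1, Nsdhl, Ebp and Sc5d include 0 in both comparisons.

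The regulators of the pathway were compared next. Of 7 genes of the SREBP machinery, 0 were higher and 4 lower in MACS-sorted than in unsorted samples, with a median of -0.28. Over all genes tested, 18.8% were higher and 27.7% lower. Srebf2, which encodes SREBP-2, was at 52.2, 52.9, 57.6 and 49.1 FPKM in unsorted and 55.5, 62.3, 59.7 and 48.7 FPKM in MACS-sorted samples (0.09, adjusted p = 0.430), so these ranges overlapped. Srebf1, which encodes the SREBP better known for fatty acid synthesis, fell from 15.9 ± 0.720 to 11.0 ± 1.35 FPKM (-0.53, adjusted p = 0.0012). Insig1, which holds the SREBP precursors in the endoplasmic reticulum and is itself induced by them, fell from 36.1 ± 2.34 to 25.5 ± 2.01 FPKM (-0.50, adjusted p = 6.3e-04). The proteases that release SREBPs, Mbtps1 (-0.28, adjusted p = 0.0115) and Mbtps2 (-0.47, adjusted p = 0.0084), also fell. In unsorted against intact samples, Srebf1 (0.27, adjusted p = 0.0212) and Srebf2 (0.34, adjusted p = 0.0210) rose and 0 of 7 were lower. The shares over all genes tested were 14.8% higher and 7.79% lower.

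Of 4 other known SREBP-2 targets, 0 passed in MACS-sorted against unsorted samples, where 46.5% of all genes tested passed. Stard4, a carrier of sterol between membranes, was at 17.9 ± 1.85 FPKM in unsorted and 21.2 ± 1.90 FPKM in MACS-sorted samples (0.25, adjusted p = 0.0559).

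Branches that share substrates with the pathway were listed as well. Of 7 tested genes that use isoprenoids for purposes other than sterols, 0 were higher and 4 lower in MACS-sorted than in unsorted samples, with a median of -0.32. Fnta and Fntb, the subunits of protein farnesyltransferase, which uses the product of Fdps, fell by 0.70 (adjusted p = 3.0e-05) and 0.67 (adjusted p = 0.0058) on the log2 scale. Of 9 genes of fatty acid synthesis, 1 was higher and 4 lower, with a median of -0.17. For both lists, the shares over all genes tested were 18.8% higher and 27.7% lower. Acly, which makes cytosolic acetyl-CoA for both fatty acids and sterols, rose from 146 ± 5.89 to 202 ± 32.1 FPKM (0.45, adjusted p = 0.0079), and Fads2, a fatty acid desaturase, fell from 60.7 ± 3.72 to 21.0 ± 4.03 FPKM (-1.54, adjusted p = 1.3e-05). In unsorted against intact samples 3 of the 9 were higher, among them Fasn, fatty acid synthase (0.62, adjusted p = 0.0224), and 0 were lower. Over all genes tested, 14.8% were higher and 7.79% lower there.

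Genes of cholesterol efflux, uptake and turnover had a median further from 0 than the other lists of sterol and fatty acid genes. After sorting, 18.8% of all genes tested were higher and 27.7% lower. Of 15 tested in this list, 1 was higher and 10 were lower in MACS-sorted than in unsorted samples, with a median of -0.98. Among those that fell, Vldlr, a lipoprotein receptor, went from 7.18 ± 0.179 to 0.354 ± 0.124 FPKM (-4.05, adjusted p = 1.1e-06), whereas Lrp8, a receptor of the same family, rose from 4.14 ± 0.284 to 7.94 ± 0.643 FPKM (0.92, adjusted p = 4.5e-05). In unsorted against intact samples 7 of 16 were higher and 2 lower, with a median of 0.11. Over all genes tested, 14.8% were higher and 7.79% lower in that comparison.

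**Figure D5:**
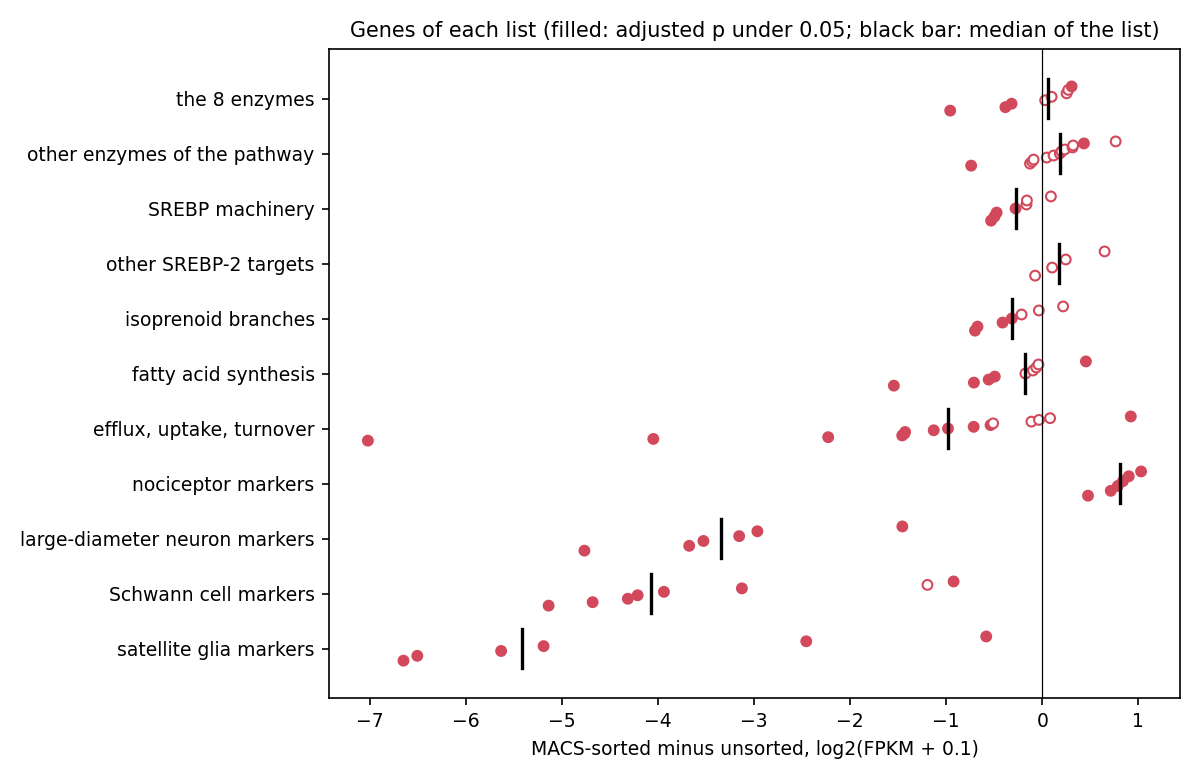
Difference of MACS-sorted minus unsorted group means of log2(FPKM + 0.1) for each tested gene of 11 lists, with the median of each list as a black bar. Filled points have an adjusted p under 0.05 (limma). The medians of the 8 enzymes (0.06) and the other enzymes (0.18) lie close to 0, with single genes from -0.96 to 0.31 and from -0.74 to 0.76. The medians of Schwann cell (-4.07), satellite glia (-5.41) and large-diameter neuron markers (-3.34) lie far below 0.

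The size of the members' differences can be read against those marker lists. Schwann cell markers had a median log2-fold change of -4.07 and satellite glia markers of -5.41, while the member with the greatest decrease, Lss, was at -0.96. Single genes of those lists differed by as little as -0.92 (Schwann cell) and -0.58 (satellite glia). The 6 markers of neurons in general ran from -0.94 (Snap25) to 0.61. Nociceptor markers had a median of 0.81, above the 0.31 of Idi1. Among 8255 other genes that averaged 5 FPKM or more, those whose profile over the 12 samples was most like the mean standardised profile of the 8 members were 2510003E04Rik (Pearson r = 0.960), Ap2m1 (0.909), Fars2 (0.909), Hars (0.901) and 0610009O20Rik (0.897). Correlations between 2 members ran from -0.67 (Lss and Fdft1) to 0.91 (Fdps and Fdft1), so the mean profile joined opposed patterns. These correlations are a description over samples that share groups and libraries.

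The genes lie on 7 chromosomes of mm10, at chr13:119690351-119708260 for Hmgcs1, chr13:8885606-8892396 for Idi1, chr3:89093588-89101967 for Fdps, chr14:63145150-63177793 for Fdft1, chr15:59315092-59331193 for Sqle, chr10:76531627-76553934 for Lss, chr5:4080674-4104697 for Cyp51 and chr7:143823167-143848410 for Dhcr7. In GENCODE vM21, 1124 of the 1453 exon bases of Fdps are shared with a gene model on the same strand, Gm43738, so its FPKM are uncertain. Exon bases are shared with a gene on the opposite strand for Hmgcs1 (557 of 3482), Idi1 (323 of 3027), Fdft1 (774 of 3698, with Ctsb), Lss (381 of 4667) and Cyp51 (166 of 3931, with Akap9). The library kit marks strand, but whether strand was used in counting is not given in the sources used here, so reads of these partners may be included. Sqle and Dhcr7 share exon bases with no other gene.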

How the data were processed

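RNA-sequencing of polyA-selected RNA was performed on 12 samples, 4 in each of 3 groups given by the sample titles. The authors aligned 100-base reads to mm10 with TopHat2, merged lanes with SAMtools and computed expression with Cufflinks 2.1.1 (CuffDiff for their comparisons), and deposited FPKM for 24490 genes. Aligned reads and counts were not used here. The spacing of low FPKM values corresponded to 13560000 to 19380000 fragments per sample if fragments of 150 bases are assumed.

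Pairs of groups were compared with limma 3.58.1 (R 4.3.3) after log2(FPKM + 0.1) transformation, with a trend of the prior variance on intensity. Genes that averaged 1 FPKM or more over the 8 samples fitted were tested, with Benjamini-Hochberg adjustment over all of them and a threshold of 0.05. limma took the place of CuffDiff, which needs aligned reads. Fold changes on this scale understate those of genes with low FPKM. Exact permutation tests were two-sided over 70 splits. The script was tested on simulated data.

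All 8 members are named. The other cholesterol enzymes, the SREBP genes and other targets could be named, and of further lists the 2 genes with the greatest rise and the greatest decrease, and set markers. The members and lists were chosen with earlier results of these data known. Alternatives changed the pseudocount, filter, scaling, model and samples. Promoters were RefSeq, GRCm38.p6. Some genes of the lists are not reported by name.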

Additional observations from a re-analysis of the deposited data

Results flagged for a closer look

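For each of the 8 enzymes, the 4 samples of each group were checked for 1 sample far from the other 3, and 4 of 24 such groups held one by Dixon's criterion, which flags about 5% of groups by chance. Intact replicate 1 was apart for Lss, at 8.02 FPKM beside 11.1 to 11.5 FPKM in the other intact samples, and for Cyp51, at 38.6 FPKM beside 29.3 to 29.6 FPKM. This library also had the highest summed FPKM of the 12, and it was the highest intact sample for 4 members and the lowest for the other 4. MACS-sorted replicate 2 was apart for Cyp51, at 29.0 FPKM beside 24.4 to 24.5 FPKM. Unsorted replicate 3 was apart for Sqle, at 86.6 FPKM beside 92.2 to 92.4 FPKM.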

How the results depend on the processing

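Of 464 recomputed differences of single enzymes, 422 kept their direction and their side of the threshold, 19 lost a call, 18 gained one and 5 changed sign. The sign changes were small: in MACS-sorted against unsorted samples with 1 replicate left out, Sqle ranged from -0.011 (without MACS-sorted replicate 2) to 0.23 and Dhcr7 from -0.057 (without the same library) to 0.083, with -0.0017 without unsorted replicate 4. In unsorted against intact samples, Fdft1 was at -0.0028 under quantile normalization, and Lss ranged from -0.074 (without intact replicate 1) to 0.098. The count of members higher after sorting, 1, was 0 with all 12 samples in one fit, with no intensity trend and with unsorted replicates 1 and 2 averaged, 2 under median-ratio size factors, quantile normalization or removal of red blood cell genes, 0 to 3 when 1 replicate was left out, and 4 with MACS-sorted replicates 3 and 4 left out, an alternative added after seeing the data, which also gave 2 members that met the 3 criteria. The count of members lower after sorting, 3, was 2 with unsorted replicates 1 and 2 averaged and without unsorted replicate 1, 2 or 4. It was also 2 with MACS-sorted replicates 3 and 4 left out. The share of all genes higher after sorting, 18.8%, moved too. It was 33.1% under quantile normalization, 23.4% under median-ratio size factors and 21.9% with red blood cell genes removed. It was 17% with all 12 samples, 18.3% with no intensity trend and 17.2% with a replicate block. With 1 replicate left out it was 15.5 to 21.4%. With unsorted replicates 1 and 2 averaged, 15.9% were higher and 23.9% lower. Without unsorted replicate 1, 2 or 4, 23.6 to 24% were lower. Requiring a log2 ratio beyond 1 left 0 members after sorting and 0 in MACS-sorted against intact samples. In the latter comparison 2 members were lower with all 12 samples or quantile normalization, quantile normalization left 1 member that met the criteria, and leaving out 1 replicate gave 1 to 3 higher, 1 to 2 lower and 1 to 3 that met the criteria. In it 3 members, in place of 2, were also higher with all 12 samples, median-ratio size factors, quantile normalization, removal of red blood cell genes or MACS-sorted replicates 3 and 4 left out, and 3 met the criteria under median-ratio size factors, removal of red blood cell genes or with those replicates left out. The cause of these changes was not tested. Quantile normalization moved the median difference of all genes after sorting from -0.04 to 0.11. Replicate numbers did not pair the samples (correlations of same-numbered deviations from -0.14 to 0.07), and with a replicate block 0 members were higher after sorting (Idi1 adjusted p = 0.0660) while no other call of a member changed. Values listed near 0 and the unknown number of reads per gene limit what can be said of low genes.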
